A study of Mus musculus with 6 samples.

Results

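Elastic fibres and the microfibrils around them are extracellular cables that give tissues recoil and hold growth factors near cells. The 10 genes described here encode emilins (Emilin1, Emilin2, Emilin3), the related multimerins (Mmrn1, Mmrn2), fibrillins (Fbn1, Fbn2), the elastin precursor (Eln), the assembly protein fibulin-5 (Fbln5) and the latent TGF-β binding protein Ltbp1. They were picked by gene symbol out of a table of 18211 genes, and the choice was made from measured values of the same comparison, with results of that comparison known. Their differences between genotypes are therefore given as a description and without a test. All 10 had a row in the table, and 8 of them passed the filter on low values, an RPKM (reads relative to transcript length and sequencing depth) of 0.5 or more in 3 or more of the 6 libraries. Mmrn1 and Fbn2 did not pass it.

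The libraries came from oligodendrocyte precursor cells (OPCs), the glial precursors of myelinating oligodendrocytes, of C57BL/6 mice at P7. In 3 libraries the mice were wildtype, without CreERT. In the other 3 they were NG2-CreERTM:DISC1 exon3 fl/+ (DISC1-Δ3), in which the promoter of Cspg4, the gene for NG2, drives a tamoxifen-dependent Cre that removes exon 3 from a single copy of Disc1. Both genotypes received tamoxifen by gavage from P4 to P7, and the cells were taken by immunopanning with PDGFRα and lysed without culture. Since CreERT was present in DISC1-Δ3 mice alone, an effect of the Cre protein and an effect of the deletion cannot be told apart. NG2 is also made by pericytes, so the promoter by itself does not limit the driver to OPCs. The authors reported, from RT-qPCR of isolated cells, that DISC1-Δ3 mRNA rose in OPCs alone among the types assayed, which included pericytes. No source used here says whether each library came from its own animal or from pooled animals, so error bars and p-values measure the spread between these libraries, which may be technical.

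The depth per library was 13716619 to 16417219 reads, as the sum of rounded expected counts. Of 13792 tested genes 5498 differed between genotypes by edgeR's quasi-likelihood test at a Benjamini-Hochberg adjusted p under 0.05, which is 39.9% of them and the background for every count below. Of the tested genes 20.4% were called higher and 19.5% were called lower in DISC1-Δ3, and with scaling to library totals alone the higher share of all calls moved from 51.1% to 69.1%. DISC1-Δ3 replicate 3 stood apart from replicates 1 and 2, since chi-square divided by its degrees of freedom was 5.24 and 4.98 in its pairs against 2.65 for the remaining pair, so values without it are given for Emilin1, Mmrn1, Mmrn2, Fbn2 and Fbln5, the genes it moved most. The RPKM of Disc1 itself was 3.55 ± 0.238 against 2.72 ± 0.240 in DISC1-Δ3 (SD, n = 3 each; log2 fold change -0.45, standard error 0.088, adjusted p = 0.000528 from edgeR over all tested genes), a value per gene that does not resolve exon 3. Cspg4 went from 15.8 ± 1.38 to 23.0 ± 1.41 RPKM (SD, n = 3 each; log2 fold change 0.46, standard error 0.062, edgeR adjusted p = 1.15e-05).

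Among the 10 genes the order of RPKM levels changed with genotype. In wildtype libraries Eln stood first at a mean RPKM of 23.9, followed by Emilin1 at 8.16. Fbln5 at 4.04 and Emilin2 at 4.02 came next and overlapped, as did Ltbp1 at 2.34 and Mmrn2 at 1.91. Fbn1 at 0.737 and Emilin3 at 0.620 overlapped as well, and so did Fbn2 at 0.293 and Mmrn1 at 0.253. In DISC1-Δ3 libraries Eln was again first, at 58.4 RPKM, but Emilin3 at 20.1 and Ltbp1 at 14.2 came directly after it, with no overlap between neighbours. Emilin1 at 6.42 and Fbln5 at 5.88 followed and overlapped, and Emilin2, Mmrn2, Fbn1, Fbn2 and Mmrn1 came below them in that order without overlap. The summed RPKM of all 10 genes was 46.3 ± 1.45 in wildtype and 113 ± 1.19 in DISC1-Δ3 libraries (SD, n = 3), and Eln, Emilin3 and Ltbp1 made up most of the difference.

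**Figure D1:**
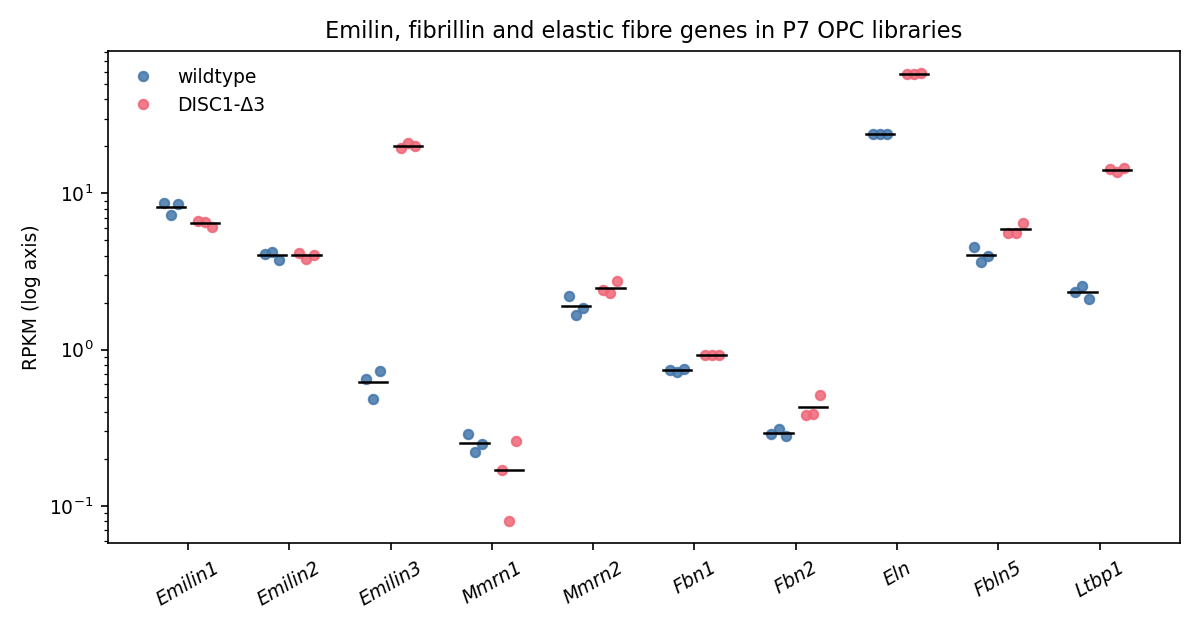
RPKM of the 10 genes (vertical log axis) in each of the 3 wildtype (blue) and 3 DISC1-Δ3 (red) libraries, with black bars at the group means. Emilin3, Ltbp1 and Eln show the widest separation of the groups, and the points of Emilin2 and Mmrn1 overlap.

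The emilins are secreted glycoproteins found where elastin meets the microfibrils. Emilin3 (gene ID 280635; chr2:160906437-160912328, minus strand, GRCm38, the build that is also called mm10) is the emilin that lacks the C1q-like domain at the end of its relatives. It had 29, 26 and 40 reads in wildtype replicates 1 to 3, and 921, 1120 and 1072 reads in DISC1-Δ3 replicates 1 to 3. The RPKM values were 0.65, 0.48 and 0.73 against 19.45, 20.88 and 20.04. Every DISC1-Δ3 library was far above every wildtype library, and the wildtype level was near the filter, with a coefficient of variation of 20.6% against 3.57% in DISC1-Δ3. Wildtype libraries alone would not have carried Emilin3 past the filter, since wildtype replicate 2 was at 0.48. The fitted log2 fold change was 4.95 (standard error 0.11), rank 43 from the top among 13792 genes, and it lay between 4.78 and 5.11 when each library was left out in turn. With a pseudocount of 1 on the RPKM it was 3.71, because the wildtype level is below that pseudocount. No exon of another annotated gene overlaps those of Emilin3.

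Emilin1 (gene ID 100952; chr5:30913402-30921277, plus strand), which binds elastin and fibulin-5 and is known to restrain the processing of the TGF-β precursor, had the opposite direction. Its RPKM was 8.64, 7.23 and 8.61 in wildtype libraries, against 6.62, 6.57 and 6.07 in DISC1-Δ3 libraries, from 408, 402 and 490 reads against 321, 359 and 331. The groups did not overlap, although wildtype replicate 2 came within 0.61 RPKM of the nearest DISC1-Δ3 library. The log2 fold change was -0.45 (standard error 0.092), and -0.40 without DISC1-Δ3 replicate 3, and ran from -0.54 to -0.30 over all alternatives.

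Emilin2 (gene ID 246707; chr17:71252172-71311978, minus strand), another emilin with the C1q-like domain, had similar levels in both groups. The RPKM was 4.11, 4.22 and 3.73 in wildtype libraries, against 4.17, 3.83 and 4.05 in DISC1-Δ3 libraries. These values interleave, and the fitted log2 fold change was -0.09 (standard error 0.096). It ranged from -0.14 to 0.00026 over the alternatives, so its sign depends on the scaling.

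The make-up of the emilin RPKM differed between the genotypes. Emilin1 accounted for 63.7% ± 2.73 of the summed emilin RPKM in wildtype and for 21.0% ± 0.883 in DISC1-Δ3 libraries (SD, n = 3). Emilin2 accounted for 31.5% ± 3.5 and 13.2% ± 0.808, and Emilin3 for 4.82% ± 0.781 and 65.8% ± 1.33. The sum itself was 12.8 ± 0.771 RPKM in wildtype and 30.6 ± 0.625 RPKM in DISC1-Δ3 libraries. These shares do not depend on the scaling between libraries, but they do depend on the transcript lengths the authors used.

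**Figure D2:**
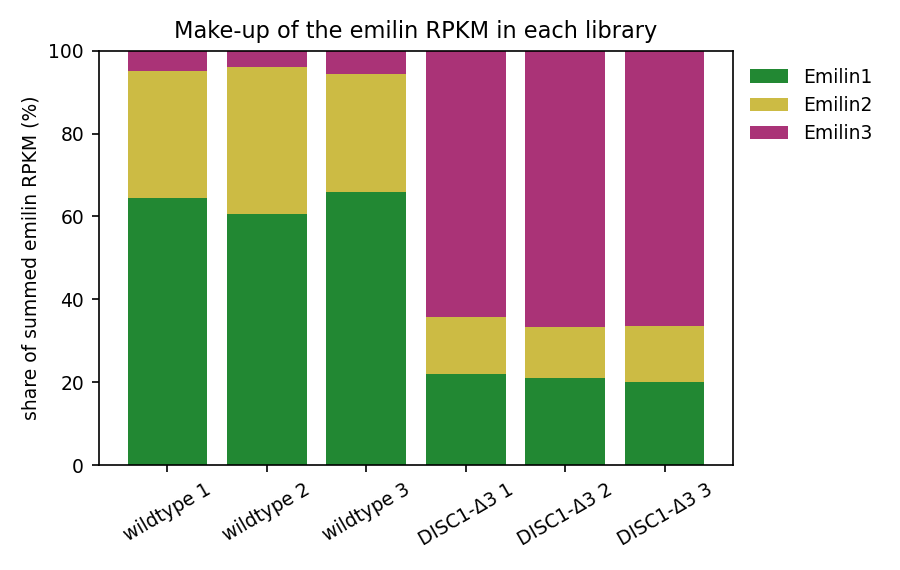
Share of the summed RPKM of Emilin1, Emilin2 and Emilin3 (vertical axis, %) that each gene took in each of the 6 libraries. Emilin3 takes 4.02% to 5.59% in the wildtype libraries and 64.3% to 66.8% in the DISC1-Δ3 libraries.

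The multimerins share the N-terminal domain of the emilins. Mmrn2 (gene ID 105450; chr14:34375465-34404287, plus strand), a protein of endothelial basement membranes, had 114, 104 and 115 reads in wildtype and 130, 142 and 167 in DISC1-Δ3 libraries. Its RPKM was 2.2, 1.67 and 1.85 against 2.41, 2.32 and 2.74. The groups were separated by a gap of 0.12 RPKM, which is under the SD within either group (0.270 and 0.221), and the log2 fold change was 0.31 (standard error 0.14), and 0.24 without DISC1-Δ3 replicate 3. Mmrn1 (gene ID 70945; chr6:60924976-60989378, plus strand), which platelets and endothelial cells store and which binds factor V, was at the lower end of detection. It had 18, 16 and 18 reads in wildtype and 11, 6 and 19 in DISC1-Δ3 libraries, or an RPKM of 0.29, 0.22 and 0.25 against 0.17, 0.08 and 0.26. Those groups overlapped, since DISC1-Δ3 replicate 3 lay among the wildtype values. In a fit without the filter its log2 fold change was -0.62 (standard error 0.40). It was -1.07 without DISC1-Δ3 replicate 3 and -0.28 without DISC1-Δ3 replicate 2, and it ran from -1.07 to -0.10 over all alternatives. From the summed reads, 52 against 36, scaled to library totals alone, the ratio of DISC1-Δ3 to wildtype was 0.692. Its exact binomial interval at 95% was 0.440 to 1.08. That interval pools the libraries of a group, so it covers counting error only and leaves out the spread between libraries. It includes a ratio of 1, leaves more room for a fall than for a rise, and is given to show the limit of depth, not as a test.

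Elastin itself was the most abundant of these mRNAs per length. Eln (gene ID 13717; chr5:134702593-134747323, minus strand), which encodes tropoelastin, the soluble precursor of the fibre core, had 1180, 1385 and 1389 reads in wildtype and 2996, 3344 and 3350 in DISC1-Δ3 libraries. Its RPKM was 23.99, 23.82 and 23.83 in wildtype libraries, against 58.15, 58.39 and 58.76 in DISC1-Δ3. The libraries within a group spanned 0.17 and 0.61 RPKM, and the gap between the groups was 34.2 RPKM. The coefficient of variation was 0.399% in wildtype and 0.526% in DISC1-Δ3, the smallest of the 10 genes in wildtype. The log2 fold change was 1.21 (standard error 0.045), rank 298 among the tested genes, and it ran from 1.18 to 1.30 over all alternatives. An antisense gene, Gm30003, shares 267 of the 8098 annotated exon bases of Eln on the opposite strand, and reads of the pair cannot be told apart without strand.

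The fibrillins, which polymerise into the microfibrils, had low levels. Fbn1 (gene ID 14118; chr2:125300594-125507993, minus strand) had 99, 115 and 119 reads in wildtype and 129, 145 and 144 in DISC1-Δ3 libraries, or an RPKM of 0.74, 0.72 and 0.75 against 0.93 in each of the 3 DISC1-Δ3 libraries. The groups did not overlap, and the log2 fold change was 0.25 (standard error 0.12), from 0.15 to 0.33 over the alternatives. A gene on the opposite strand, Gm9913, shares 2442 of the 12128 exon bases annotated for Fbn1. Fbn2 (gene ID 14119; chr18:58008623-58210487, minus strand) is the fibrillin best known from fetal tissue. The RPKM was 0.29, 0.31 and 0.28 across wildtype and 0.38, 0.39 and 0.51 in DISC1-Δ3 libraries, from 40, 51 and 48 reads against 55, 64 and 83. Without the filter its log2 fold change was 0.45 (standard error 0.19), and 0.31 without DISC1-Δ3 replicate 3, the library with the highest value, and it ran from 0.14 to 0.54 over all alternatives. The ratio of summed reads, scaled to library totals alone, was 1.45 (exact binomial interval at 95%, 1.17 to 1.82, counting error only). The fit gave a fold of 1.36. The interval leaves out the spread between libraries and is not a test. Of the summed RPKM of Eln, Fbn1 and Fbn2, the fibrillins together took little, with Eln at 95.9% in wildtype and 97.7% in DISC1-Δ3 libraries.

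Fbln5 (gene ID 23876; chr12:101746565-101819055, minus strand) encodes fibulin-5, which carries tropoelastin and its cross-linking enzyme to microfibrils. Its RPKM was 4.51, 3.66 and 3.96 in wildtype libraries, against 5.57, 5.57 and 6.50 in DISC1-Δ3 libraries, from 156, 153 and 170 reads against 211, 236 and 266. The groups did not overlap, with a gap of 1.06 RPKM. The log2 fold change was 0.49 (standard error 0.11), and 0.43 without DISC1-Δ3 replicate 3.

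Ltbp1 (gene ID 268977; chr17:75005568-75392512, plus strand) encodes a protein that is secreted together with latent TGF-β and ties it to fibrillin. It had 170, 229 and 180 reads in wildtype and 1071, 1163 and 1236 in DISC1-Δ3 libraries. The RPKM was 2.35, 2.56 and 2.10 in wildtype libraries, against 14.31, 13.60 and 14.54 in DISC1-Δ3. No DISC1-Δ3 library was near a wildtype library, and the log2 fold change was 2.50 (standard error 0.081), rank 112 among the tested genes and 2.42 to 2.60 with each library left out.

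Ltbp1 has long and short transcripts from separate starts, 173242 bases apart in the GENCODE annotation (with transcripts of 6671 nt and 5140 nt), and the values per gene do not say which start the reads in DISC1-Δ3 libraries came from. The 250 bases before each start in RefSeq (GRCm38.p6, plus strand, 5′ to 3′) are shown so that both candidate promoters can be compared. Capitals mark CTTTG, the core of the site that the Wnt transcription factors TCF and LEF bind, searched on both strands.
Long start, chr17:75005279-75005528: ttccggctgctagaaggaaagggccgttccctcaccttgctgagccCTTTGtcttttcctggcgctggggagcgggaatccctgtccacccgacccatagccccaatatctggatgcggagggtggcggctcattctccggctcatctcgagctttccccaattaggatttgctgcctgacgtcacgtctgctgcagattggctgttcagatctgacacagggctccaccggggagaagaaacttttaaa
Short start, chr17:75178531-75178780: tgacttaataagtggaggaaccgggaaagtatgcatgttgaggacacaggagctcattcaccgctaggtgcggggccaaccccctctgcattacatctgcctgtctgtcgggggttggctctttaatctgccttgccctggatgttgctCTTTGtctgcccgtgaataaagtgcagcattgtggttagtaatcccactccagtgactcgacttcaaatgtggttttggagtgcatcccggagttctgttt
Each stretch holds the core at 1 place, and the long start has another in the 50 bases after it, which are not shown. Of 32851 RefSeq windows from 250 bases before to 50 after a start, 53.9% hold CTTTG on either strand. RefSeq gave 9 such windows for 6 of the 10 genes (Fbn1, Emilin1, Mmrn1, Fbln5, Emilin2 and Ltbp1), and 4 of the 9 hold it. The longer forms CTTTGAA or CTTTGAT, which contain the core, are in 8.65% of all windows and in 0 of the 9, and the TATA box sequence TATAAA is in 13.6% of all and in 0 of the 9. These matches describe letters in short windows and say nothing of whether a factor was bound.

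Read over the set, 4 of the 8 tested genes were called higher in DISC1-Δ3 (Emilin3, Ltbp1, Eln and Fbln5), 1 was called lower (Emilin1) and 3 were not called (Mmrn2, Fbn1 and Emilin2). These calls come from the fit over all tested genes, and for the chosen genes they are a description and not a test. The background of called genes, 39.9%, stands beside that count, and nothing is read from it because the genes were chosen with this comparison known. Likewise 7 of the 8 had RPKM values that did not overlap between the groups, where 52.0% of all tested genes did not. Those called with a log2 fold change beyond 1 in either direction were 3 of the 8, and 3.82% of all tested genes. The median log2 fold change was 0.40 for the 8 genes and 0.01 for all tested genes. With scaling to RPKM sums the latter median became 0.09.

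**Figure D3:**
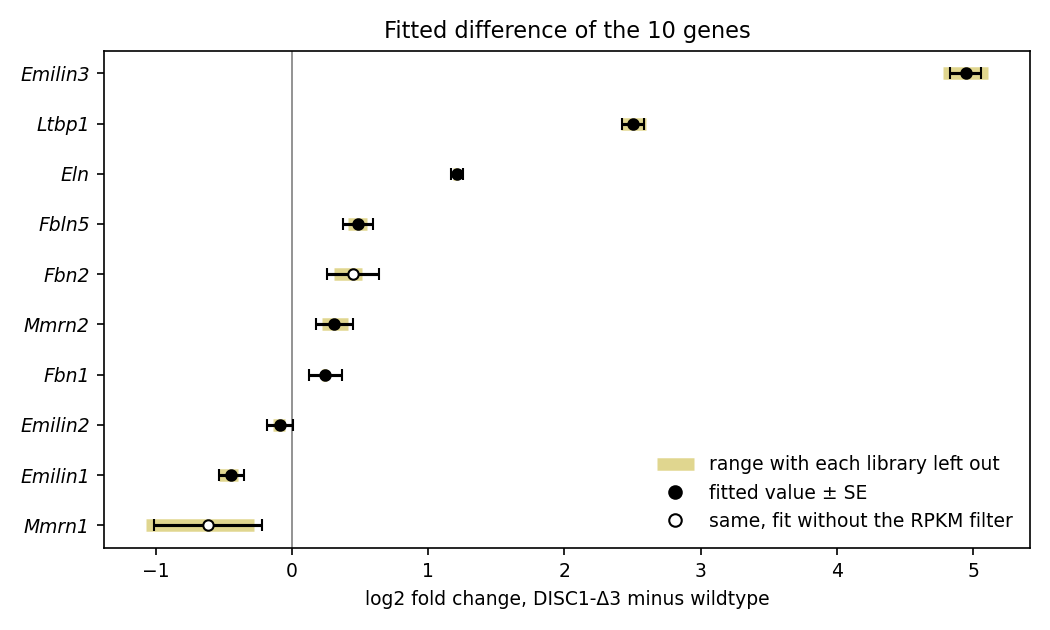
Fitted log2 fold change (DISC1-Δ3 minus wildtype, horizontal axis) of each of the 10 genes with its standard error, filled where the gene passed the RPKM filter and open where the fit had no filter. The yellow bars give the range when each library was left out in turn. Emilin3 is at 4.95, Ltbp1 at 2.50 and Eln at 1.21, and the remaining genes lie between -0.62 and 0.49.

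For other genes of the pathway, 4 lists were read from the same fit, with p-values adjusted over all 13792 genes. These lists too were chosen with earlier results of these data known. Their counts and p-values are therefore descriptions, and nothing is read from a count that stands above or below the background. The first held 27 further components of microfibrils and elastic fibres and proteins that bind them. Of 25 tested, 9 rose, 4 fell and 12 were not called, which is 52.0% called beside the background of 39.9%, with a median log2 fold change of 0.16. The largest rises were in Thsd4 and Fbln1. Thsd4, an ADAMTS-like protein that promotes fibrillin-1 assembly, was at 0.87, 0.87 and 0.71 RPKM against 3.21, 3.41 and 3.25 in the DISC1-Δ3 libraries (log2 fold change 1.93, standard error 0.099, edgeR adjusted p = 5.33e-11). Fbln1, fibulin-1, a component of the elastin core, had 27.13, 26.97 and 28.27 RPKM against 94.36, 90.44 and 89.13 (log2 fold change 1.63, standard error 0.050, edgeR adjusted p = 4.11e-14). In both genes the groups lay far apart compared with the spread within them.

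Of the 4 genes that fell, Adamtsl4, a fibrillin-binding ADAMTS-like protein, changed most, from 1.58, 1.66 and 1.53 RPKM to 0.77, 0.76 and 0.66 (log2 fold change -1.22, standard error 0.17, edgeR adjusted p = 1.53e-05). The other three were named after their values were seen, as the count was small. They were Npnt (nephronectin, a basement membrane ligand of integrins; log2 fold change -0.43), Mfap3 (-0.45) and Mfap3l (-0.47), whose names come from microfibril-associated protein 3. The call of Mfap3l was lost in 3 of 16 alternatives.

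Of 9 enzymes that cross-link or process elastic fibre proteins 6 were tested, and 1 was called higher. This was Loxl2, a lysyl oxidase, named after its value was seen, at 1.37 ± 0.0115 RPKM against 1.88 ± 0.115 in DISC1-Δ3 libraries (SD, n = 3; log2 fold change 0.38, standard error 0.12, edgeR adjusted p = 0.0230, and 0.00657 to 0.108 over the alternatives). Its call was lost in 7 of 16 alternatives, among them DESeq2, which called 0 of the list, with 1 gene at an unadjusted p under 0.05. Over the list the median log2 fold change came to 0.01. Lox, the main enzyme that cross-links elastin, was under the filter at 0.347 ± 0.102 and 0.430 ± 0.113 RPKM.

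A further list held 12 growth factors of the TGF-β family and proteins that hold or release them. Of 10 tested, 4 were called higher and 2 lower, with a median log2 fold change of 0.17. The BMP growth factors tested on this list, Bmp2, Bmp4 and Bmp7, were among those that rose. Bmp2 went from 1.08, 1.48 and 1.41 RPKM to 4.27, 5.02 and 4.94 (log2 fold change 1.81, standard error 0.13, edgeR adjusted p = 5.19e-09). Bmp7, whose prodomain binds fibrillin, went from 8.71 ± 0.291 to 20.9 ± 0.809 RPKM (SD, n = 3; log2 fold change 1.18, edgeR adjusted p = 1.31e-10), and Bmp4 from 3.87 ± 0.0608 to 8.66 ± 0.951 RPKM (log2 fold change 0.995, edgeR adjusted p = 1.70e-06). Tgfb3 rose from 2.04 ± 0.424 to 3.17 ± 0.144 RPKM (log2 fold change 0.56, edgeR adjusted p = 0.00584).

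By contrast Tgfb1, the ligand that Ltbp1 is best known for holding, fell from 226.26, 223.69 and 214.80 RPKM to 171.59, 170.34 and 151.00 (log2 fold change -0.51, standard error 0.052, edgeR adjusted p = 4.20e-07). Nrros, which holds latent TGF-β1 on the surface of microglia, fell from 36.9 ± 2.28 to 25.6 ± 0.523 RPKM (SD, n = 3; log2 fold change -0.61, edgeR adjusted p = 1.26e-07). Both fell together with microglial marker genes. All 10 microglial markers fell, their summed RPKM was 9197 to 9536 in wildtype and 6791 to 6965 in DISC1-Δ3 libraries, and their median log2 fold change was -0.44. The part of microglial RNA in the falls of Tgfb1 and Nrros was not tested, and in bulk RNA fewer cells of a type and less RNA per cell cannot be told apart.

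Of 10 receptors 9 were tested, 2 were called higher and 2 lower, with a median log2 fold change of -0.09. Cd248, endosialin, a mural and fibroblast surface protein that binds multimerin 2, rose from 7.62, 7.72 and 6.70 RPKM to 10.90, 11.49 and 11.20 (log2 fold change 0.53, standard error 0.085, edgeR adjusted p = 8.08e-05). Itga5, a subunit of the fibronectin receptor, rose (0.38). Itga9, whose integrin binds emilin-1, fell (-0.49), and Itgb1, its partner subunit, fell (-0.16), a call that was lost in 4 of 16 alternatives. Itga5, Itga9 and Itgb1 were named after their values were seen.

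**Figure D4:**
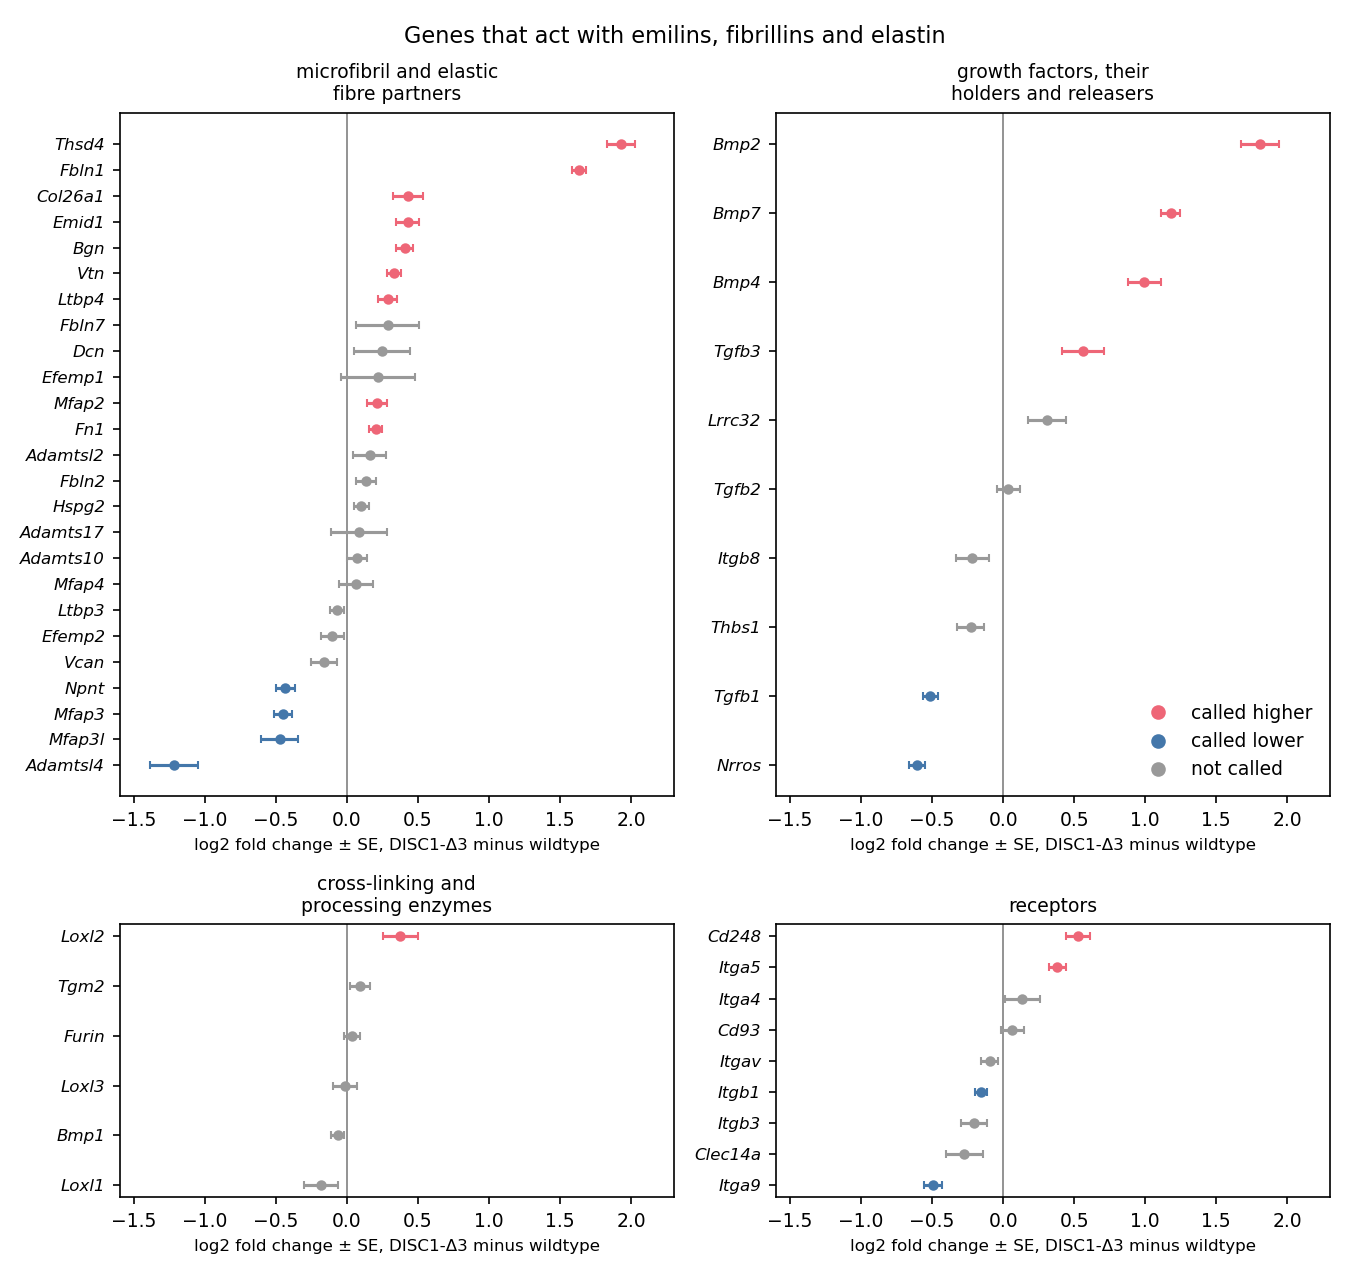
Log2 fold change with standard error (DISC1-Δ3 minus wildtype, horizontal axis) of the tested genes of the 4 pathway lists, in red where called higher, in blue where called lower and in grey where not called. Thsd4 (1.93), Bmp2 (1.81) and Fbln1 (1.63) lie farthest to the right, and Adamtsl4 (-1.22) farthest to the left.

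Several of these genes are known from blood vessel walls and meninges, so markers of other cells were examined in the same libraries. Mural markers, of pericytes and smooth muscle, were called higher in 7 of 9 tested genes, with a summed RPKM of 102 to 111 in wildtype and 146 to 152 in DISC1-Δ3 libraries and a median log2 fold change of 0.44. Every tested mural marker had a positive log2 fold change. Pdgfrb (0.21), Rgs5 (0.50) and Kcnj8 (0.44) rose, and the highest value on the list was that of Tagln, 0.68. Endothelial markers were called higher in 6 of 12 genes, with a summed RPKM of 190 to 204 against 251 to 255. Those not called also had positive log2 fold changes. Cldn5 (0.39) and Cdh5 (0.23) rose, and Pecam1 was at 0.04. Kcnj8 and Cdh5 each kept the call in 11 of 16 alternatives, and DESeq2 called 5 of the endothelial markers. Fibroblast markers were called higher in 2 of 9 tested genes, with sums of 97.1 to 98.5 against 112 to 119, and Col1a1 (0.06), Col1a2 (0.09) and Col3a1 (0.24) were not called. DESeq2 called 0 of the fibroblast markers, with 3 at an unadjusted p under 0.05. On these 3 lists the fibroblast marker Dpt was listed at 0 in replicate 3 of both genotypes and did not pass the filter, and no other marker was at 0 in any library. The log2 fold changes of Fbln5, Mmrn2, Fbn1, Fbn2 (fitted without the filter) and Cd248 lay within the range of the mural markers, 0.02 to 0.68. They also lay within the ranges of endothelial (0.03 to 0.67), OPC (-0.37 to 0.74) and neuronal markers (-0.11 to 1.19). That placement is therefore not particular to mural cells. These log2 fold changes all lay above the fibroblast range, -0.08 to 0.24. Those of Emilin3, Ltbp1, Eln, Thsd4 and Fbln1 lay above all of these ranges. All these genes were chosen with results of this comparison known, so their placement is a description. It does not show which cells the RNA came from. The part of mural, endothelial or fibroblast RNA in any of these results was not tested.

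OPC markers were called higher in 7 and lower in 2 of 10 genes, with Pdgfra at 17.5 ± 0.503 and 25.9 ± 0.915 RPKM (SD, n = 3; log2 fold change 0.48), Cspg4 as above and Olig1 rising by 0.31. Their summed RPKM, 560 to 581 in wildtype and 720 to 749 in DISC1-Δ3, was below that of microglial markers, among which Cx3cr1 was at 475 ± 16.0 and 384 ± 13.5 RPKM, and P2ry12 and Tmem119 fell by 0.23 and 0.65 on the log2 scale. RNA of other cells was therefore present in these preparations. Neuronal markers were called higher in 8 of 9 genes (Snap25 by 0.48, Syt1 by 0.96, Rbfox3 by 0.41). Astrocyte markers were called higher in 1 and lower in 6 of 9 (Aqp4 -0.28, Gja1 -0.34, Aldh1l1 -0.30). Oligodendrocyte markers were called lower in 6 of 8 (Mog -0.45, Mag -0.54, with Mobp at -0.09 not called). Macrophage markers were called lower in 3 of 7, with Mrc1 at -0.32, and Cd163 (0.14) and Lyve1 (0.20) not called. The median of the macrophage list was 0.14, opposite in sign to the called genes, and DESeq2 called 2 of them. Of 4 tested platelet markers, the cells in which Mmrn1 is best known, 0 were called by edgeR, with 1 at an unadjusted p under 0.05, and 0 by DESeq2, with 0 at an unadjusted p under 0.05, with sums of 9.81 to 9.92 RPKM in wildtype and 9.10 to 10.4 in DISC1-Δ3 libraries. Itga2b was at -0.30, Gp1ba at -0.66 and Gp9 at -0.02.

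**Figure D5:**
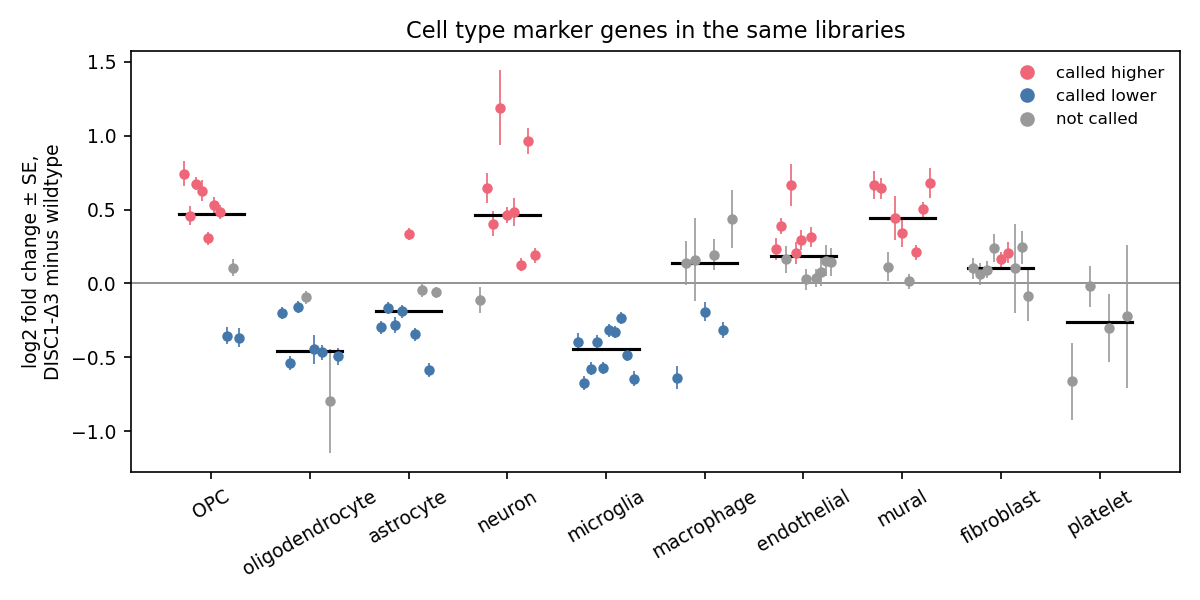
Log2 fold change with standard error (DISC1-Δ3 minus wildtype, vertical axis) of the tested marker genes of 10 cell types, coloured by call as in the plot of the pathway lists, with black bars at the medians. The mural median is 0.44 and the OPC median 0.47, and all microglial markers lie below 0.

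Finally, the genes with the most similar pattern were listed for Emilin3, Ltbp1 and Eln, as the smallest Euclidean distance of centred log2(RPKM + 0.5) over the 6 libraries among 13783 tested genes. Closest to Emilin3 were Fst (distance 0.31), Pla2g2f (0.33), Npffr1 (0.41), Akp3 (0.45) and Wnt16 (0.62). Fst, follistatin, which binds activins, had 0.12, 0.03 and 0.08 RPKM in wildtype and 9.80, 8.60 and 9.13 in DISC1-Δ3 libraries, and Pla2g2f and Akp3 were listed at 0 in all wildtype libraries. Among those closest to Ltbp1 were Col23a1 (0.21), Wnk4 (0.24), Prkcq (0.25) and Axin2 (0.25). Col23a1, a transmembrane collagen, had 4.23, 4.00 and 4.11 RPKM against 24.45, 23.67 and 23.82, and Axin2, a feedback inhibitor of Wnt signalling, 5.11, 4.73 and 4.65 against 23.56, 25.34 and 27.55. Closest to Eln were Smyd2 (0.05), Fgfrl1 (0.08), Sdc1 (0.09), Wnt5a (0.09) and Tacr1 (0.11). Smyd2, a lysine methyltransferase, had 15.91, 15.74 and 16.10 RPKM against 38.85, 37.79 and 39.40. The pseudocount pulls genes of low level together in this measure, and the distances are descriptions over 6 libraries. Tacr1, for example, had a mean of 0.033 RPKM in wildtype and 0.82 in DISC1-Δ3 libraries. Its fitted log2 fold change was 4.38, well above that of Eln.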

How the data were processed

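RNA of freshly panned OPCs was purified on oligo(dT) beads, primed with random hexamers and read as single ends on a BGIseq500. The submitters' processing notes name Bowtie2 2.2.5 and the genome build mm10; the counter and its annotation are not given in the sources used here, and no strand marking is described. The authors deposited an expected count for each gene and library, of which 90.2% of values above 0 are whole, and an RPKM with 2 decimals, relative to transcript length and to the sum of reads. The table's 4 columns of averages per group were left out.

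Expected counts were rounded and the genotypes compared with edgeR 4.0.16 (quasi-likelihood test, TMM scaling, two-sided, Benjamini-Hochberg adjustment over 13792 genes, threshold 0.05) in R 4.3.3. Alternatives were DESeq2 1.42.0 with and without the filter, limma 3.58.1 on log2(RPKM + 1) and log2(RPKM + 0.1), no filter, an RPKM of at least 1, other scalings, the replicate number as a block, and each library left out. In simulated data with these means and library sizes edgeR recovered 193 of 200 changed genes among 13792 genes. All planted changes had the same size, a log2 fold change beyond 1 in either direction. Recovery of smaller changes, or with as many changed genes as were called here, was not simulated. Recovery alone does not show how many unchanged genes are called, and that count is not given here. The 10 genes and the lists were chosen with earlier results of these data known. All 10 genes are named, with list genes that were called with a log2 fold change of 0.5 or more in either direction, the first 3 markers of each list, Disc1, Cspg4, and the 5 nearest genes to Emilin3, Ltbp1 and Eln. A gene that this rule names for Ltbp1 is not reported here. Reads carry no molecular identifiers, so intervals cover counting error only. Gene coordinates are from GENCODE for GRCm38 and promoter windows from RefSeq.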

Additional observations from a re-analysis of the deposited data

How the results depend on the processing

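Of the pathway list genes 24 were called, and 20 of them were called under every alternative; Mfap2, Mfap3l, Loxl2 and Itgb1 were not. The count of cross-linking genes called, 1, became 0 with DESeq2 and with DESeq2 without the RPKM filter (an alternative chosen after seeing the data). It ran from 0 to 1 with each library left out, and the cause was not tested. Without DISC1-Δ3 replicate 2 the count stayed at 1, but Loxl2 lost its call and Loxl1 was called lower (log2 fold change -0.33). The other list counts and the number of genes called stayed within 1.5 times their value, the latter lowest, 4342, when wildtype replicate 2 was left out and highest, 6232, when DISC1-Δ3 replicate 3 was. With the replicate block 5429 genes were called in place of 5498, and the counts of the lists, 9, 4, 1, 6 and 4, were as without it. The deviations of libraries with the same number had correlations of 0.044, 0.026 and -0.029, so no shared effect of the replicate number was seen. The labels do not say how replicates were numbered, and these values cannot exclude a pairing by litter or day. None of the called genes among the 10 or on the pathway lists changed sign. Of 153 alternative log2 fold changes of the 10 genes, 23 moved by more than the spread between replicates. Genes with few reads, Mmrn1 above all, are limited by depth.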
